A study of Mus musculus with 6 samples.

Results

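The annexins are a family of calcium-dependent, phospholipid-binding proteins, and their transcripts were compared between BRAF KE–transfected and nontransfected mouse astrocytes. The genes were a given list of 9 annexins, Anxa1, Anxa2, Anxa3, Anxa4, Anxa5, Anxa6, Anxa7, Anxa8 and Anxa11, of the 55357 genes in the deposited table. The list does not hold Anxa9, Anxa10 and Anxa13, which the table also has, and counts of annexins are over the listed genes unless stated. Of these 9 genes, 5 (Anxa6, Anxa7, Anxa1, Anxa5 and Anxa2) were upregulated in BRAF KE–transfected cultures, 2 (Anxa3 and Anxa4) were downregulated, Anxa11 was not called and Anxa8 was too low to be tested, while 25.3% of all tested genes were higher and 26.0% lower. With Anxa9, which was tested and not called, 7 of 9 tested annexins were called. Anxa6 rose 2.23-fold and became the most abundant annexin by normalized count, whereas Anxa3 was 1.57-fold lower.

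An annexin consists of a conserved core of repeated domains, which bind calcium and attach to negatively charged phospholipids such as phosphatidylserine, and of a variable N-terminal tail that binds other proteins. When calcium rises in a cell, annexins move from the cytosol to membranes, where they organize membrane domains, help to reseal wounded plasma membrane, and take part in exocytosis and endocytosis. Several of them pair with small calcium-binding proteins of the S100 and EF-hand families, and extracellular Anxa1 limits inflammation through formyl peptide receptors. Astrocytes contain several annexins, and Anxa1 and Anxa2 are known from glial reactions to injury.

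The astrocytes were cultured from the cortex of C57BL/6 mouse embryos. The KE group, with the genotype label K499E, comprised 3 cultures given a plasmid that encodes FLAG-tagged BRAF KE under the CMV promoter, which is active in most cell types, and RNA was taken 48 hours later. The paper describes this plasmid for immunostained cultures, which also received a GFP plasmid. Whether the sequenced cultures received GFP as well was not determined here. The NT group, with the genotype label naive, comprised 3 cultures that received no plasmid. The samples include no cultures given an empty or a BRAF WT plasmid. The effects of plasmid delivery and of BRAF KE therefore cannot be told apart. The labels do not say whether the cultures came from separate preparations, so p-values refer to these cultures and may not hold for other preparations. Values are normalized counts (gene counts that the authors divided by DESeq2 size factors). The depth, estimated from the most frequent low value of each culture, was 24500000 reads in KE replicate 2 and 29500000 to 34100000 reads in the other cultures. Braf was 34933 to 40978 normalized counts in KE and 811 to 946 in NT, in accordance with the labels. Of 10 astrocyte markers, S100b was low, with mean normalized counts of 17.7 in KE and 26.7 in NT, and Sox9, the lowest of the others, was at 4338 and 3273.

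All 15 markers of microglia and macrophages were downregulated in KE, and their summed normalized counts were 4348 to 6458 in KE and 47290 to 60428 in NT, with none of the 15 at 0. The 7 oligodendrocyte lineage markers summed to 7636 to 9013 in KE and 12135 to 12691 in NT, and the 6 that were tested were lower. The other lists were mixed. Of 9 tested fibroblast and vascular markers 5 were lower and 2 higher (Col1a2 and Lum), and the sum of 2890 to 3059 in KE against 3571 to 4815 in NT rested on Acta2, without which the ranges were 2258 to 2417 and 2397 to 2981 and overlapped. Of 6 tested neuronal markers 1 was lower (Map2) and 1 higher (Tubb3), and the sum was 6060 to 6547 in KE and 7711 to 8292 in NT with Map2 but 1154 to 1409 and 906 to 1058 without it. Of 10 astrocyte markers 7 were higher, Gja1 was lower (log2FC -0.46), and Aqp4 (0.02) and S100b (-0.60) were not called, with a sum of 194523 to 200354 in KE and 142105 to 150693 in NT. In RNA from whole cultures, fewer cells of a type and less RNA per cell cannot be told apart. The part of these shifts in the annexin differences was not tested.

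The differences were tested with limma on log2(normalized count + 1), where a log2FC of 1 is a doubling, and a gene was called at a Benjamini-Hochberg adjusted p-value under 0.05. The variance that limma uses for a gene combines its spread between cultures with that of genes of similar level. For genes with few reads, such as Anxa8 and Fpr2, the added 1 makes the change appear smaller than it is. In the whole comparison, 51.3% of the 15280 tested genes were called, with 25.3% higher and 26.0% lower in KE, so calls were common and 7 of 8 tested genes of the list are to be read against that share. These 8 annexins were well expressed in both groups, and among the 8866 genes with a mean of at least 500 the share called was 57.4%. The values of KE and NT were apart, without overlap, in all 8, of which 6 were higher and 2 lower in KE. The same held for 59.9% of all tested genes (30.1% higher and 29.9% lower) and for 65.1% of those with a mean of at least 500. The median log2FC was 0.23 over the 8 annexins and 0.0018 over all tested genes, and the median absolute log2FC was 0.50 and 0.30. For any one gene, exact permutation of 3 and 3 cultures has a smallest two-sided p of 0.1.

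**Figure D1:**
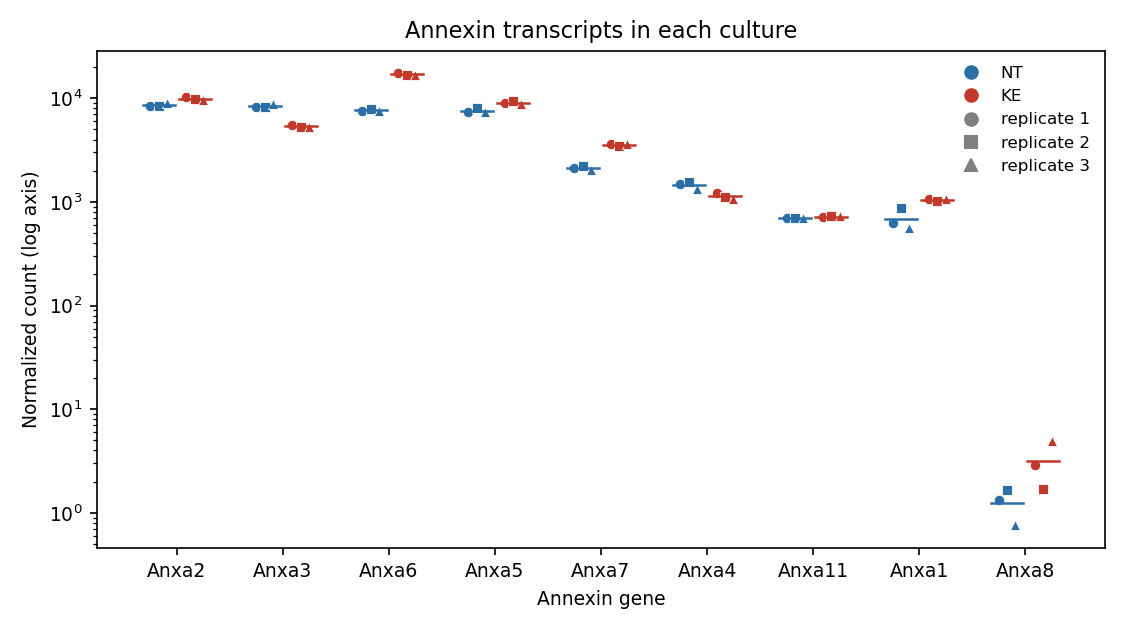
Normalized count (log axis) of each annexin gene in each of the 3 NT (blue) and 3 KE (red) cultures, with horizontal lines at the group means and a symbol for each replicate number. Anxa6 sits at 16665 to 17389 in KE and at 7456 to 7893 in NT, Anxa3 moves the opposite way, and Anxa8 lies below 5 in every culture.

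Anxa6 showed the largest rise. It differs from the other annexins by a longer core with more of the repeated domains, and it is associated with endosomes, cholesterol handling and the recruitment of a RAS GTPase-activating protein to the plasma membrane. The gene (ENSMUSG00000018340) occupies bases 54869654 to 54924305 of chromosome 11 (GRCm39, as for all genes here) on the minus strand, and its canonical transcript has 25 exons. The KE cultures had 17389, 16922 and 16665 normalized counts, and the NT cultures had 7456, 7893 and 7549. The groups were far apart, and the cultures within each were close to each other. Anxa6 averaged 16992 ± 367 (SD, n = 3) in KE against 7633 ± 230.0 (SD, n = 3) in NT. The log2FC was 1.15, with a standard error of 0.05 and a limma adjusted p of 3.0e-08. This log2FC was higher than that of 96.1% of all tested genes.

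Anxa7, also called synexin, promotes membrane fusion in calcium-dependent secretion and has a long N-terminal tail. The gene (ENSMUSG00000021814) is on the minus strand of chromosome 14, from 20505328 to 20530201. Normalized counts of 3620, 3486 and 3610 in KE and of 2137, 2209 and 2037 in NT were measured. Every KE culture was above every NT culture, and the log2FC was 0.75 ± 0.06 (SE; limma, adjusted p = 1.3e-06). Anxa11, which has a similarly long tail and links RNA granules to lysosomes, lies on the plus strand of the same chromosome from 25842547 to 25887229. It was 709, 726 and 728 in KE and 693, 696 and 705 in NT. Although the values did not overlap, the difference was small, with a log2FC of 0.05 (95% interval -0.11 to 0.20, adjusted p = 0.60 from limma), and Anxa11 was not called. The ratio of Anxa7 to Anxa11 normalized counts averaged 4.95 ± 0.15 in KE against 3.05 ± 0.15 in NT (SD, n = 3 each).

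Anxa1 and Anxa2 are the annexins with the best known S100 partners, and both were upregulated. Anxa1, the glucocorticoid-induced inhibitor of phospholipase A2 that acts on formyl peptide receptors, lies on the minus strand of chromosome 19 from 20350792 to 20368374. It was 1057, 1013 and 1073 in KE and 621, 878 and 560 in NT. NT replicate 2 was well above the other NT cultures but still below all KE cultures. KE averaged 1048 ± 31.4 (SD, n = 3) against 686 ± 169 (SD, n = 3) for NT. The log2FC was 0.64 ± 0.14 (SE; limma, adjusted p = 0.0026). Without NT replicate 2 the log2FC was 0.83, and without NT replicate 3 it was 0.50, both with the call retained.

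Anxa2, which forms a tetramer with S100a10 beneath the plasma membrane, lies on the plus strand of chromosome 9 from 69360542 to 69399077. It was 10179, 9925 and 9592 in KE and 8341, 8451 and 8915 in NT. The KE values lay just above the NT values, and the log2FC was 0.21 ± 0.05 (SE; limma, adjusted p = 0.0077). Anxa5, the phosphatidylserine-binding annexin used to label dying cells, was of similar abundance and changed by a similar amount. The gene is on the minus strand of chromosome 3, from 36503072 to 36530126. Cultures of the KE group had 8900, 9306 and 8882 normalized counts against 7320, 8029 and 7354 for NT, without overlap. The log2FC was 0.26 ± 0.06 (SE; limma, adjusted p = 0.0032). These rises correspond to 1.16-fold for Anxa2 and 1.19-fold for Anxa5, and both are smaller in size than the change of most tested genes, being larger in absolute log2FC than 37.7% and 44.3% of them.

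Anxa3 and Anxa4 were the downregulated annexins. Anxa3, which inhibits phospholipase A2 and is found in myeloid cells as well as in other tissues, lies on the plus strand of chromosome 5 from 96940544 to 96993828. It was 5542, 5250 and 5286 in KE and 8203, 8297 and 8727 in NT. All KE cultures were far below all NT cultures, averaging 5359 ± 159 (SD, n = 3) against 8409 ± 279 (SD, n = 3). The log2FC was -0.65 ± 0.05 (SE; limma, adjusted p = 2.5e-06). Of the marker lists given above, the microglia and macrophage markers were lower with a median log2FC of -3.33 and a range of -4.07 to -0.88. The median was -0.65 for oligodendrocyte lineage, -0.59 for fibroblast and vascular, 0.10 for neuronal and 0.40 for astrocyte markers. Whether any of these shifts had a part in the Anxa3 difference was not tested. Anxa4, which is best known from epithelial cells, lies on the minus strand of chromosome 6 from 86713675 to 86771064. It was 1213, 1108 and 1075 in KE and 1479, 1556 and 1336 in NT, without overlap, and its log2FC was -0.36 ± 0.08 (SE; limma, adjusted p = 0.0026).

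Anxa8, an annexin of stratified epithelia on the plus strand of chromosome 14 from 33807936 to 33822528, was nearly undetected. It had 2.88, 1.69 and 4.92 normalized counts in KE and 1.34, 1.65 and 0.76 in NT, below the mean of 10 that was required for a test. With no filter on low genes its log2FC was 0.83 with an adjusted p of 0.25 from limma, and values of a few reads per culture do not permit a statement in either direction. Of the other annexins in the table, Anxa9 averaged 41.0 ± 9.73 in KE against 46.3 ± 12.8 in NT (SD, n = 3 each) and was not called (log2FC -0.16, 95% interval -0.76 to 0.44), with overlapping groups. Anxa10 is listed at 0 in all cultures, and Anxa13 did not exceed 1.25.

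**Figure D2:**
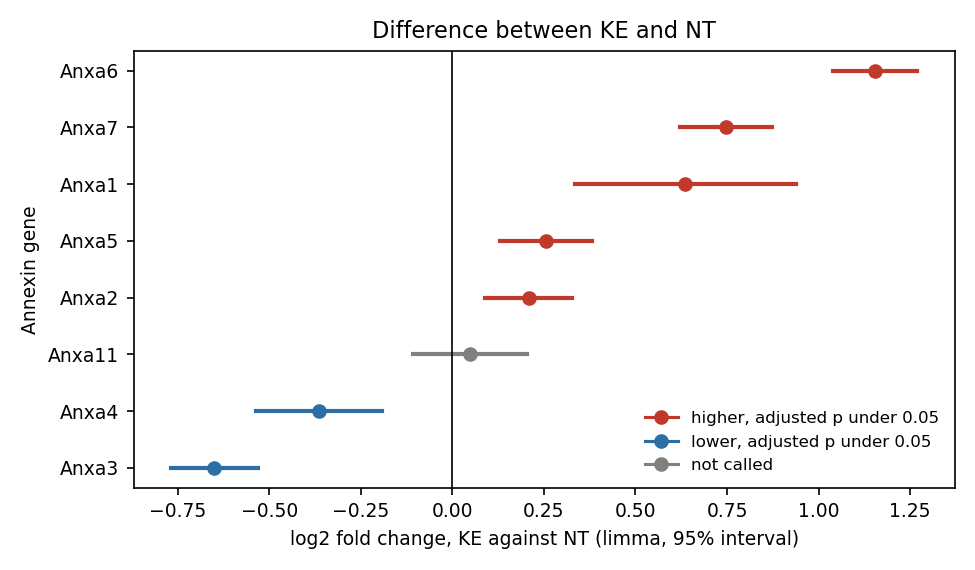
The log2FC of the 8 tested annexin genes of the list between KE and NT, with the 95% interval from limma as a horizontal line (red higher, blue lower, grey not called). The intervals of Anxa6 (1.04 to 1.27), Anxa5 (0.13 to 0.38) and Anxa3 (-0.77 to -0.53) do not overlap each other.

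The 9 annexin transcripts together made up a larger part of the transcriptome in KE. Their summed normalized counts were 48613, 47737 and 46915 in KE and 36253, 38012 and 37183 in NT, or 0.155% ± 0.0022 and 0.122% ± 0.0026 of all normalized counts (SD, n = 3 each). Most of this difference was Anxa6, since without it the sums were 30763 ± 489 in KE and 29517 ± 669 in NT (SD, n = 3 each), with ranges of 30250 to 31224 and 28797 to 30119 that still did not overlap. In NT, Anxa2, Anxa3, Anxa6 and Anxa5 had nearly equal shares of the annexin sum, 23.1%, 22.6%, 20.5% and 20.4%. In KE the shares of Anxa6 and Anxa3 were 35.6% ± 0.17 and 11.2% ± 0.20 (SD, n = 3), and those of Anxa2 and Anxa5 were 20.7% and 18.9%. The ratio of Anxa6 to Anxa3 normalized counts, which does not depend on scaling between cultures, was 3.14, 3.22 and 3.15 in KE and 0.91, 0.95 and 0.87 in NT. A share of normalized counts gives more weight to longer transcripts and is not a share of molecules.

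**Figure D3:**
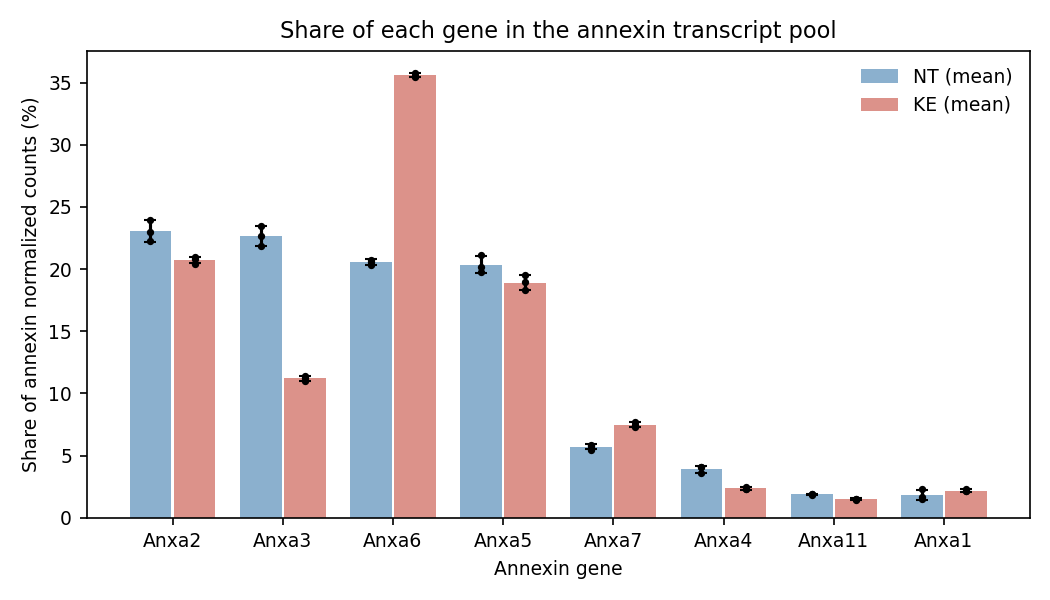
Share of each annexin gene in the summed annexin normalized counts, as group means (bars) with SD (error bars) and single cultures (dots), n = 3 per group; Anxa8, at most 0.0105% in any culture, is left out. The bar of Anxa6 rises from 20.5% in NT to 35.6% in KE, and that of Anxa3 falls from 22.6% to 11.2%.

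Levels were compared between genes as normalized counts per kilobase of annotated exons. In NT the order was Anxa2 (1704 ± 60.6), Anxa3 (1355 ± 45.0), Anxa6 (1126 ± 33.9), Anxa5 (893 ± 47.2), Anxa7 (326 ± 13.3), Anxa4 (235 ± 18.0), Anxa1 (220 ± 54.1), Anxa11 (89.8 ± 0.79) and Anxa8 (0.66 ± 0.24), each with SD and n = 3. Of neighbours in this order, Anxa4 and Anxa1 overlapped in range and the others did not. In KE the order was Anxa6 (2507 ± 54.2), Anxa2 (1968 ± 58.6), Anxa5 (1065 ± 28.3), Anxa3 (863 ± 25.7), Anxa7 (548 ± 11.4), Anxa1 (335 ± 10.03), Anxa4 (183 ± 11.7), Anxa11 (92.8 ± 1.34) and Anxa8 (1.68 ± 0.87), with no overlap between neighbours. Thus per kilobase Anxa6 moved from the third place to the first and Anxa3 from the second to the fourth. Per kilobase of the canonical transcript, a length model added after the data were seen, Anxa2 led in KE with 6841 against 6101 for Anxa6, and in NT Anxa5 was above Anxa6 with 4372 against 2741. Genes that overlap an annexin in the annotation and are listed in the table had mean normalized counts of at most 5.27.

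The genes most like Anxa6 over the 6 cultures were Slc41a1, Ndrg4 and Ube2e2, with Pearson's r of 0.9997, 0.9996 and 0.9993 of the log2 values. For Anxa3 they were Acat2, Mcm6 and Zdhhc14, with r of 0.9996, 0.9992 and 0.9989. As the cultures form groups that lie far apart, 389 other genes had an r above 0.99 with Anxa6 and 232 with Anxa3, so these values describe the split between KE and NT.

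Sequences upstream of a transcription start are shown for members that moved in opposite directions, Anxa7 and Anxa2, which rose, and Anxa4, which fell. The Anxa7 stretch lies outside the annotated gene. Those of Anxa2 and Anxa4 lie within the gene bounds given above, upstream of a start inside the gene. RefSeq promoter sequences (GRCm38.p6) were matched for 7 of the 9 members, Anxa3 and Anxa6 being the others, and the 250 bases before each start were searched on both strands for TGANTCA (AP-1, the factor formed by Fos and Jun proteins downstream of ERK), TGACGTCA (cAMP response element), GAAA, any 2 bases and GAAA (interferon-stimulated response element), TTCNNNGAA (gamma-activated site) and GGGCGG (GC box). The sequences below are the parts of these windows outside annotated exons, 5′ to 3′ in the direction of the gene, with matches in capitals, and lie on GRCm39 at chr14:20530202-20530451 (minus strand), chr9:69360715-69360901 (plus strand) and chr6:86770584-86770801 (minus strand).
Anxa7: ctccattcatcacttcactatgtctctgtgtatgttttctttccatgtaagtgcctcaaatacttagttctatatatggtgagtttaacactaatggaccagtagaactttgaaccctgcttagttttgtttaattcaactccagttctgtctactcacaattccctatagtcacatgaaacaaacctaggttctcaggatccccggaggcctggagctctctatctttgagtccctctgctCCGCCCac
Anxa2: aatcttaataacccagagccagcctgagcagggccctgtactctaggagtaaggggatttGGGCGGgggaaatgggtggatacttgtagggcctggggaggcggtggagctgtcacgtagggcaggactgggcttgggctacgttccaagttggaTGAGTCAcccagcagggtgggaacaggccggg
Anxa4: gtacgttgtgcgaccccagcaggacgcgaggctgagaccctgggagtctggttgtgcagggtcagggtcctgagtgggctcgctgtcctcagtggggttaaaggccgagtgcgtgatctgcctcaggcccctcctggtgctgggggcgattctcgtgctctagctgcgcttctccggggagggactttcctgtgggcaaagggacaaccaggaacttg

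Among the 9 windows of the 7 matched members, the AP-1 letters were found in 1, that of Anxa2, beginning 95 bases before the start, against 6.75% of all 32841 windows. The GC box was found in 4 windows, those of Anxa2 and Anxa11 and both of Anxa7, against 32.7% of all windows. The letters of the cAMP response element, the interferon-stimulated response element and the gamma-activated site, which occur in 1.55%, 2.98% and 7.02% of all windows, were in none of the 9. A match is a description of these letters in this stretch.

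Of 10 genes whose proteins work directly with annexins, 5 were upregulated, 2 downregulated and 3 not called, beside 25.3% higher and 26.0% lower among all tested genes, with a median log2FC of 0.15. The S100 partner of Anxa2, S100a10, was 658, 548 and 620 in KE and 384, 373 and 334 in NT, without overlap. Its log2FC was 0.74 (limma, adjusted p = 1.1e-04), beside 0.21 for Anxa2, and the ratio of Anxa2 to S100a10 normalized counts was 15.5, 18.1 and 15.5 in KE and 21.7, 22.7 and 26.7 in NT. S100a6, which binds Anxa11, had a log2FC of 0.87 (limma, adjusted p = 7.1e-05), whereas S100a11, which binds Anxa1 and Anxa6, was not called at -0.11 (95% interval -0.30 to 0.09). Sorcin (Sri), an EF-hand partner of Anxa7, rose by 0.31 in log2FC (limma, adjusted p = 7.4e-04), and Pdcd6, which binds Anxa7 and Anxa11, was not called at 0.14. Pla2g4a, the cytosolic phospholipase that Anxa1 inhibits, had a log2FC of 0.60 (limma, adjusted p = 1.3e-04). Plat, the plasminogen activator whose activity the complex of Anxa2 and S100a10 localizes, was called at 0.15 with a limma adjusted p of 0.049, a call that was lost without 5 of the 6 cultures in turn (adjusted p up to 0.17), the exception being KE replicate 2, and also with no filter or no variance trend (0.080 and 0.079 from limma). The scaffold protein gene Ahnak was not called at -0.08.

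Transcripts of the formyl peptide receptors of Anxa1 were lower in KE, while that of Anxa1 was higher. RNA from whole cultures does not show which cells these transcripts came from. Fpr1, the formyl peptide receptor of phagocytes, was 57.8, 51.3 and 35.3 in KE and 1047, 1218 and 656 in NT, and its log2FC was -4.29 (limma, adjusted p = 1.1e-07). Fpr2 was 16.1, 5.43 and 1.87 in KE and 126, 118 and 86.0 in NT, and its log2FC was -4.01 (limma, adjusted p = 8.3e-05). The size of the Fpr2 change was uncertain, at -4.67 without KE replicate 1, -3.38 without KE replicate 3 and -3.31 with a pseudocount of 5, and it was called in each case. For both genes all KE cultures were far below all NT cultures. All 15 microglia and macrophage markers were also lower without overlap, by amounts from -0.88 in log2FC for P2ry12 to -4.07 for Itgam.

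Among 13 genes of plasma membrane repair, a process in which annexins take part, 6 were upregulated, 1 downregulated and 6 not called, with a median log2FC of 0.15. Calls in 7 of 13 genes are close to the 51.3% called among all tested genes. The largest rise was that of Myof, which encodes the ferlin myoferlin, at 4395, 3948 and 4830 in KE and 2193, 2364 and 2103 in NT, with no overlap and a log2FC of 0.98 (limma, adjusted p = 1.9e-06). Its relative dysferlin (Dysf) had a log2FC of 0.46, acid sphingomyelinase (Smpd1) one of 0.58, and the ESCRT-III gene Chmp4b one of 0.39. The calpain genes Capn2 and Capns1 rose by 0.30 and 0.29 in log2FC, while Capn1 was not called at 0.15. Ehd1, an ATPase of endosomal recycling, was the downregulated gene at -0.45, a call that was lost without KE replicate 3 (log2FC -0.35, adjusted p = 0.067 from limma) and with no variance trend (adjusted p = 0.075). The ESCRT genes Pdcd6ip, Tsg101, Vps4a and Vps4b lay between -0.06 and 0.09 and were not called, nor was Ehd2 at -0.01.

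Of the 8 genes reported here that control exposure of phosphatidylserine, the lipid signal that annexins bind, 2 were upregulated and 6 not called, beside 51.3% called among all tested genes, and their log2FC ranged from -0.11 to 0.32. The phospholipid scramblase genes Plscr3 and Plscr1 had log2FC of 0.32 and 0.30 (adjusted p = 0.0049 and 0.0088 from limma). The calcium-activated scramblase gene Ano6 (-0.01, 95% interval -0.13 to 0.11) and the flippase subunit gene Tmem30a (0.03) were not called.

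**Figure D4:**
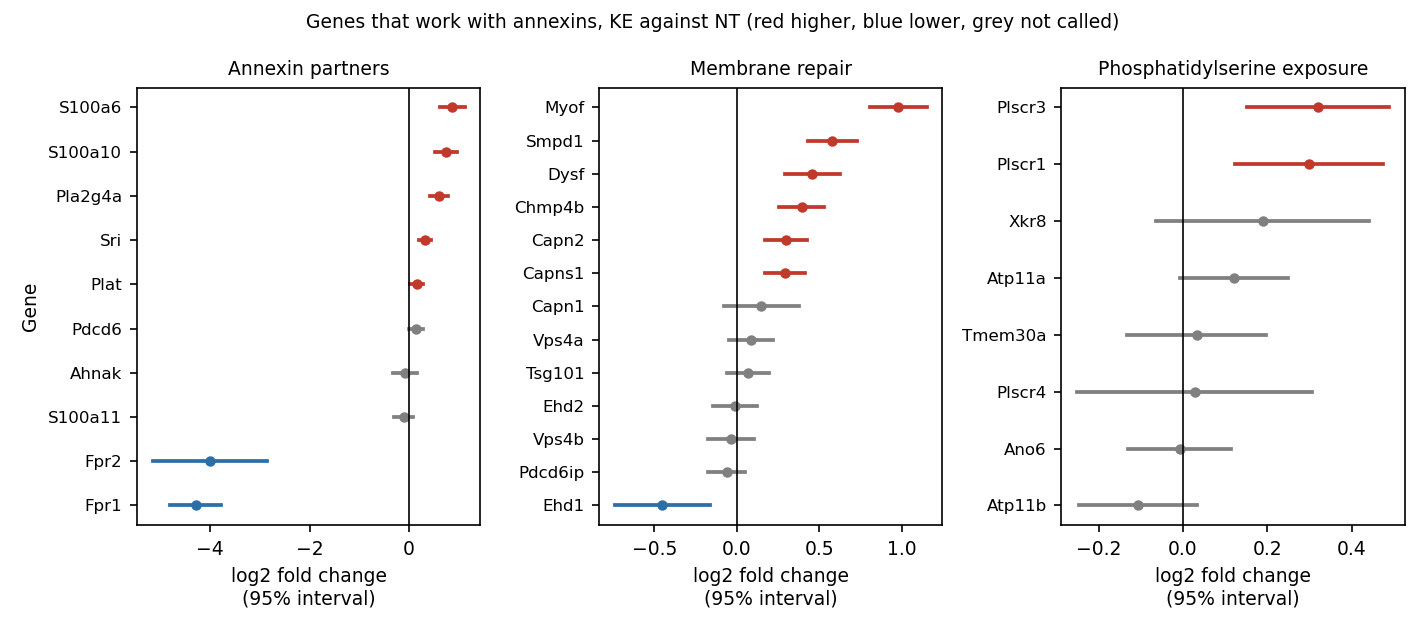
The log2FC between KE and NT, with 95% intervals from limma, of annexin partner genes, membrane repair genes and phosphatidylserine exposure genes (red higher, blue lower, grey not called), with a separate horizontal scale in each panel. Fpr1 and Fpr2 stand at -4.29 and -4.01, the latter with the wider interval, and the other partner genes lie between -0.11 and 0.87.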

How the data were processed

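RNA was sequenced from 3 BRAF KE–transfected and 3 nontransfected astrocyte cultures, grouped by their labels, with a stranded mRNA kit. The authors deposited a normalized signal, gene counts from Salmon divided by DESeq2 size factors. The supplemental methods name TrimGalore, STAR, GRCm39 and Gencode vM28 for mouse samples, while the submitters' processing notes list GRCh38, and the identifiers are mouse. The transcriptome section of the supplemental methods names hippocampus and spheroids as RNA sources, and astrocytes only for a fold-change cutoff. It mentions a batch adjustment without naming batches, so none was modelled. Whether counting used strand is not given in the sources used here. Low values lay within 0.1 of whole multiples in 72.7% to 75.8%, short of 95%, so reads were not recovered and no count test was run.

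Here log2(value + 1) of the 15280 genes whose mean reached 10 was fitted in limma 3.58.1 (R 4.3.3), with group as sole factor and with the variance trend. P-values are two-sided and adjusted by Benjamini-Hochberg over these genes, and the fit was tested on simulated data. Positions and exon lengths are from Gencode vM39 on GRCm39. Annexin proteins were not analysed here. Members and lists were chosen with earlier results of these data known. From the phosphatidylserine exposure list, 1 gene is not reported here, so counts for that list do not cover it. All 9 members are named, with Braf, genes of the lists, and the 3 genes most correlated with the member that rose most and with that which fell most. Alternatives were other pseudocounts, filters, scalings and thresholds, no trend, a replicate block, other length models, and leaving out each culture.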

Additional observations from a re-analysis of the deposited data

How the results depend on the processing

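In all 112 comparisons of an annexin log2FC with an alternative (pseudocount 0.5 or 5, no filter or a mean of at least 50, quantile or 75th percentile scaling, no variance trend, the replicate block, and leaving out each culture), the direction and the side of the threshold were kept. The filters, no variance trend and the replicate block leave the log2FC of a gene as it is. With these alternatives only the adjusted p could change, not the direction. The log2FC ranged from 1.12 to 1.18 for Anxa6, 0.72 to 0.78 for Anxa7, 0.50 to 0.83 for Anxa1, 0.23 to 0.30 for Anxa5, 0.18 to 0.24 for Anxa2, 0.04 to 0.08 for Anxa11, -0.42 to -0.31 for Anxa4 and -0.67 to -0.62 for Anxa3. Of 150 comparisons of counts of called genes, 147 stayed within 1.5 times. The exceptions concern the downregulated membrane repair gene Ehd1, whose count of 1 was 0 with no variance trend and at an adjusted p under 0.01, and 0 to 1 when each culture was left out, and the cause was not tested. With the replicate block, 5 annexins were higher and 2 lower, as without it, and no call of an annexin, partner, membrane repair or phosphatidylserine exposure gene changed. Same-numbered KE and NT cultures deviated together with r of only 0.059, 0.066 and 0.065 across genes, so the numbers were not taken as pairs, although each culture correlated best with its own number. The block moved the calls over all tested genes from 3870 to 3967 higher and from 3974 to 4079 lower. The share of low values near whole reads leaves the depth approximate, and low genes such as Anxa8 are limited by it.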
